A study of Mus musculus with 2 samples.

Results

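The 10 genes described here carry the transcriptional output of the integrated stress response and of the unfolded protein response. They were chosen by symbol from the 19059 genes of the probe set, and each matched 1 row of every count matrix. Ddit3 (CHOP, a pro-apoptotic transcription factor), Trib3 (a pseudokinase that restrains ATF4 and AKT), Chac1 (an enzyme that degrades glutathione), Asns (asparagine synthetase) and Sesn2 (a sestrin that restrains mTORC1) are targets of ATF4, the transcription factor encoded by Atf4. Hspa5 (BiP, the main chaperone of the endoplasmic reticulum), Xbp1 (the factor spliced by IRE1), Dnajb9 (ERdj4, a BiP co-chaperone) and Herpud1 (a subunit of the ER-associated degradation machinery) serve protein folding in the endoplasmic reticulum.

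Unfolded protein in the endoplasmic reticulum activates the sensors PERK, IRE1 and ATF6. PERK, like the kinases that sense amino acid loss, heme loss and double-stranded RNA, phosphorylates eIF2α, which slows general translation while the Atf4 mRNA is translated more, so ATF4 is controlled largely at the protein level. IRE1 splices the Xbp1 mRNA, a step that probe counts of whole transcripts cannot show, and spliced XBP1 and cleaved ATF6 switch on chaperones and degradation genes. In glioblastoma these responses are known from poorly perfused tissue short of oxygen and nutrients.

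The cells came from orthotopic tumors of mGSC, a mouse glioblastoma stem cell line of the genotype Trp53+/- and Nf1+/-, grown in female C57BL/6J mice. All tumors of both groups therefore carried the same genotype, came from 1 line and grew in hosts with an intact immune system. For a week the mice received, daily, vehicle or Xevinapant, an oral SMAC mimetic that antagonizes the inhibitor of apoptosis proteins, and each group was deposited as 4 matrices from 1 pool with its own batch date. Pool, batch date and treatment cannot be told apart, and the labels also name total RNA for the vehicle pool and polyA RNA for the Xevinapant pool.

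The matrices held 56943 barcodes, of which 49646 were kept, with 71835789 to 300206053 UMIs a matrix. Matrices of a group that were nearly alike in their summed counts were joined, so that 5 samples remained. The vehicle samples are called vehicle 1 and 3, vehicle 2 and vehicle 4 after their matrices, and those of the treated group Xevinapant 1 and 2 and Xevinapant 3 and 4. Nothing in the labels ties a matrix to a mouse, while the study describes 4 tumors in each group, as many as the matrices, so the matrices may be separate mice. P-values measure only the spread between the samples as joined, which may be technical, and the members whose calls change with each matrix as 1 sample are named. The 4 matrices recorded for the Xevinapant sample carry the word of the other group in their names. The record that ties them to that sample was followed, and every treatment value rests on it. In matrices of the same number, 1413 barcodes were shared by the vehicle and the Xevinapant pool, and the 1182 that looked like shallow copies were left out. A level is given in CPM, the UMIs of a gene divided by all UMIs of the cells summed and multiplied by 1000000, and in such sums fewer expressing cells and less RNA per cell cannot be told apart. Cells were put into types by UMIs of marker genes. The 35537 malignant cells held all 8 of their markers in 5 of 5 samples, among them Olig1 at 882, Sox2 at 616 and Pdgfra at 232 CPM. Transcripts of 12 glial genes outside the gates lay in the microglia, macrophages, monocytes, neutrophils, T and NK cells, endothelial cells and fibroblasts at 3.49 to 21.3% of their level in malignant cells, and the part of tumor RNA in the values of these cells was not tested.

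The promoters are shown because the motifs of the factors above fall in different members. The bases given are the 250 before the annotated start in RefSeq, build GRCm38.p6, 5′ to 3′ on the strand of the gene, with matched motif bases in capitals and free motif bases left in lower case. In Chac1 (chr2:119350992-119351241, plus strand), Asns (chr6:7693210-7693459, minus strand) and Herpud1 (chr8:94386179-94386428, plus strand) the capitals mark the C/EBP-ATF composite element, searched as TGATGNAA on both strands, to which ATF4 binds with C/EBP partners. In Herpud1 they also mark ERSE-II (ATTGG and CCACG with 1 base between). In Hspa5 (chr2:34771840-34772089, plus strand) they mark the ER stress element ERSE (CCAAT and CCACG with 9 bases between). Both elements are bound by ATF6 and XBP1.
Chac1: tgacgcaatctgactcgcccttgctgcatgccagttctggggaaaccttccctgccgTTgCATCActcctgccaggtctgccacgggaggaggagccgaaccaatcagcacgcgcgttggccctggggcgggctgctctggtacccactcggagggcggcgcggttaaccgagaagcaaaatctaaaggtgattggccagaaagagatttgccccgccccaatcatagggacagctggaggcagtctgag
Asns: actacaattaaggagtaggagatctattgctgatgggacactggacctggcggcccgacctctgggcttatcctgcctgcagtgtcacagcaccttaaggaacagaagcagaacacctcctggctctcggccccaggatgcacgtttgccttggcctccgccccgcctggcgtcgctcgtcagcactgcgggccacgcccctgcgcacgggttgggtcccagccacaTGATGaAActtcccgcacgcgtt
Herpud1: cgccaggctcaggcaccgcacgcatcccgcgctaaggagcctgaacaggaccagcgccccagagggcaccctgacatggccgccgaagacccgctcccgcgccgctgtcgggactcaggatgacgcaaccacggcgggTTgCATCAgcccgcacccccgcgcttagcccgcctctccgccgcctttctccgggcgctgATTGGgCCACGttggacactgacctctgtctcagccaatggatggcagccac
Hspa5: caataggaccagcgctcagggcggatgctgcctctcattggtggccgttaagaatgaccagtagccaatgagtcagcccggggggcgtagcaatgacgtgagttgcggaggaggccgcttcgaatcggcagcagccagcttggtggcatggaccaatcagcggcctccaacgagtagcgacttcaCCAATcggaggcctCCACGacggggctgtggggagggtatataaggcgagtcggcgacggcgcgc

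Counting the base before the start as -1 and the first transcribed base as +1, the composite element lay at -193 to -186 in Chac1, at -23 to -16 in Asns and at -112 to -105 in Herpud1. Another match, in Trib3, lay at +15 to +22 within the transcribed stretch. The element was found in 4 of 10 members and in 3.97% of 32851 promoters of 300 bases, from 250 before the start to 50 after it. ERSE lay at -65 to -47 in Hspa5 and in 0.119% of all promoters, and ERSE-II at -52 to -42 in Herpud1 and in 0.0365% of all promoters. The UPR element core TGACGTGG (0.676% of promoters) and the cyclic AMP response element TGACGTCA (1.79%) were in 0 members. The core of the hypoxia response element, ACGTG, was in 5 members (Ddit3, Asns, Hspa5, Dnajb9 and Herpud1) and in 19.6% of promoters. In Herpud1 it overlaps ERSE-II. A match says only that these letters stand in the window, as does the lack of one.

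Levels were compared across the 8 cell types with at least 3 samples, beside 14399 genes (those tested in malignant cells). Asns was highest in malignant cells, at 271 ± 57.2 CPM (SD, n = 5 samples), and its lowest malignant sample (216) lay above the highest sample of the other 7 types, as it did for 11% of genes and for no other member. The next types in the order of Asns levels were neutrophils at 69.2 ± 34.7 (n = 3), endothelial cells at 63.3 ± 34.6 and fibroblasts at 58.8 ± 19.4 (n = 5 each), whose ranges overlapped. Chac1 was also highest in malignant cells, at 49.2 ± 9.52, but its range (34.6 to 58.4) overlapped that of endothelial cells (12.8 to 36.5, n = 5) and that of neutrophils, which rested on 14 Chac1 UMIs. In microglia Chac1 stood at 1.52 ± 1.22, or at 8.07 ± 9.50 with predicted doublets kept, and in macrophages at 4.90 ± 3.46. No Chac1 UMI was counted in the 149 T and NK cells of 4 samples, which allows a level of up to 6.65 CPM, or a UMI in up to 2.01% of these cells, by counting error only.

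Among these types neutrophils stood highest for Ddit3, Sesn2, Atf4, Trib3 and Dnajb9. Ddit3 was 445 CPM in the 1 vehicle sample with at least 10 neutrophils, and 510 and 724 in the Xevinapant samples, against 79.1 ± 6.81 (n = 5) in macrophages, the next type. The ranges did not overlap. Neutrophils were also above every other type, with no overlap, for Sesn2 (147 ± 11.2), Atf4 (150 ± 28.7), Trib3 (142 ± 52.1) and Dnajb9 (52.0 ± 7.07), which makes 5 of 10 members beside 2.81% of genes. These were shallow cells, 263 in all with a median of 1467 UMIs, and their Ddit3 level rested on 242 UMIs. For Dnajb9 the lowest neutrophil sample (45.27) was only just above the highest endothelial sample (45.21). In the vehicle sample Atf4, Sesn2, Trib3 and Dnajb9 rested on 6, 5, 4 and 2 UMIs. A count of 0 there allows up to 89.1 CPM. With cells thinned to 2000 UMIs, Dnajb9 was found in 6.02% of neutrophils (2 samples) and 6.48% of macrophages. Their hypoxia markers summed to 1426 to 2001 CPM and their genes of cell dissociation and of the immediate early response to 3889 to 6308, against 119 to 298 and 671.9 to 1590 in malignant cells. The part of either in the levels was not tested.

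The genes of the endoplasmic reticulum followed other orders. Xbp1, which secretory and myeloid cells are known to use, was lowest in malignant cells at 121 ± 16.8 and highest in neutrophils at 592 ± 209 and monocytes at 503 ± 85.5. Of these types, only T and NK cells had a sample that was not above the highest malignant sample. Herpud1 was highest in T and NK cells at 240 ± 82.5 (n = 4), overlapping monocytes at 145 ± 54.1, and stood at 85.2 ± 16.6 in malignant cells. Dendritic cells, 13 in each of 2 Xevinapant samples and outside this order, held Herpud1 at 492 and 354 CPM, above all T and NK samples, and Xbp1 at 523 and 549. Hspa5 ran from 225 ± 60.1 in neutrophils to 383 ± 35.9 in fibroblasts. All neighbours in its order overlapped, but the ends did not, with 178 to 293 in neutrophils, 331 to 431 in fibroblasts and 327 to 418 in microglia.

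**Figure D1:**
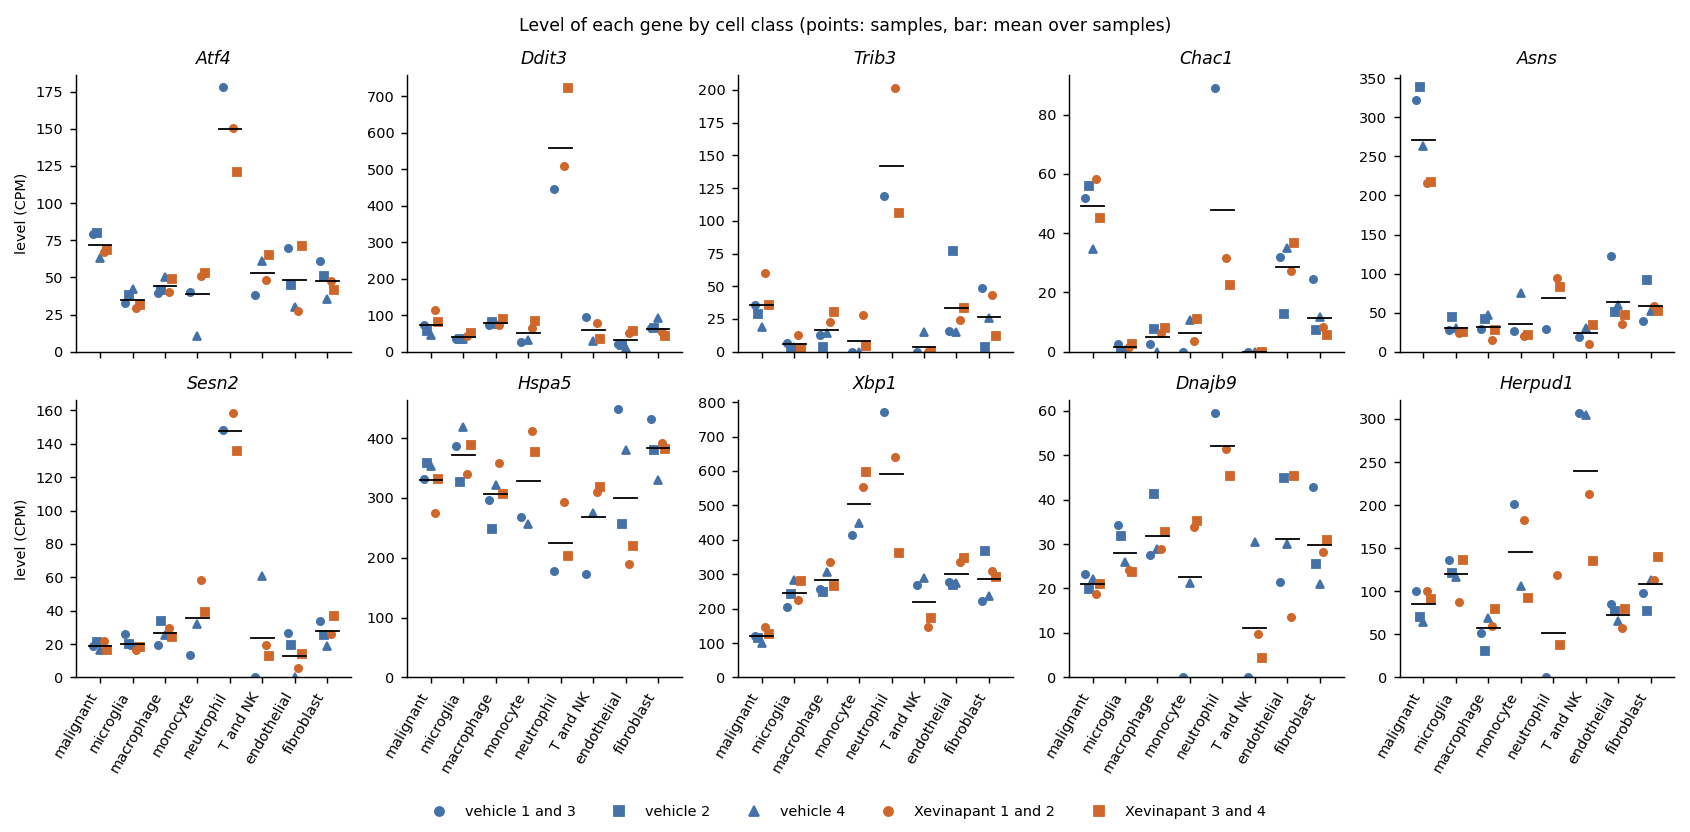
Level of each of the 10 genes (CPM, axes from 0) in each cell type, 1 point per sample, with the mean as a bar. Asns is highest in malignant cells and Ddit3 in neutrophils, while the mean of Hspa5 runs from 225 to 383.

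By state, the members were highest in MES-like cells, a comparison for which no test was run. Cells gated as MES-like by Ndrg1, Akap12 and Wwtr1, 540 in all, had a mean level above that of OPC-like, AC-like and NPC-like cells for 10 of 10 members, as was so for 23.2% of genes. Ddit3 stood at 498 ± 87.3 CPM in MES-like cells against 61.9 ± 20.6 in OPC-like, 66.8 ± 21.4 in AC-like and 73.1 ± 32.4 in NPC-like cells (SD, n = 5 samples each). Trib3 stood at 304 ± 62.7 against 30.7 ± 12.7, 18.1 ± 7.42 and 23.4 ± 17.2 in the same order. Chac1 (182 ± 33.3 against 45.2 ± 10.0 in OPC-like cells) and Hspa5 (697 ± 105 against 320 ± 39.1) had ranges that did not overlap either, and in all 10 of 10 members, beside 9.11% of genes, were above the OPC-like cells without overlap. In the MES-like cells the hypoxia markers summed to 793 to 1702 CPM, against 111 to 267 in OPC-like cells, and the genes of cell dissociation and of the immediate early response to 2198 to 4545, against 634 to 1422. Their part in the difference was not tested.

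To ask how the genes relate to transcripts of hypoxia, malignant cells were gated on Car9, Ankrd37, Egln3, Adm and Pfkfb4. These are genes induced by hypoxia, and none of them is a member. Oxygen itself was not measured. The gate held 1381 cells, and 34156 malignant cells lay outside it. All 10 genes were higher inside the gate in 5 of 5 samples, as were 20.4% of 14399 genes, and for 9 of them, beside 9.04% of genes, the ranges did not overlap. Trib3 stood at 227, 265 and 213 CPM in the gate in vehicle 1 and 3, vehicle 2 and vehicle 4, and at 300 and 289 in Xevinapant 1 and 2 and Xevinapant 3 and 4. Outside the gate the same samples had 27.8, 22.7, 16.3, 39.9 and 26.8. Within a sample the log2 ratio lay between 2.91 and 3.71, and the lowest value in the gate was above the highest outside it. The fitted log2 difference was 3.40 ± 0.10 (SE; adjusted p = 2.1e-09, edgeR's quasi-likelihood test with the sample as a block).

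Ddit3 stood at 413, 459, 282, 429 and 461 inside the gate, in the same order of samples, and at 59.2, 45.6, 43.0, 86.5 and 67.9 outside it. The ranges did not overlap, and the log2 difference was 2.87 ± 0.11 (adjusted p = 6.0e-09). Chac1 stood at 159, 202, 191, 153 and 176 against 47.8, 51.9, 32.4, 50.3 and 40.6, again without overlap, with a log2 difference of 2.08 ± 0.11 (adjusted p = 4.5e-08). Sesn2 stood at 67.3, 85.9, 71.8, 78.7 and 69.5 against 16.8, 19.3, 15.9, 17.0 and 14.5, with a log2 difference of 2.25 ± 0.07 (adjusted p = 2.7e-09).

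Asns, the fifth target, moved less. It stood at 467, 610, 543, 328 and 374 inside the gate and at 316, 331, 259, 207 and 211 outside it, so that the lowest gated sample fell just under the highest sample outside. Within each sample it was higher in the gate, by 0.89 ± 0.07 on the log2 scale (adjusted p = 1.1e-06). Atf4 itself stood at 153, 155, 137, 120 and 142 against 76.3, 77.9, 62.0, 62.5 and 65.8, a log2 difference of 1.12 ± 0.05 (adjusted p = 3.2e-08).

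The genes of the endoplasmic reticulum were higher in the gate as well. Herpud1 had a log2 difference of 1.34 ± 0.06 (means 191 and 81.1 CPM), Xbp1 of 1.25 ± 0.06 (258 and 115), Dnajb9 of 1.19 ± 0.08 (43.0 and 20.2) and Hspa5 of 0.71 ± 0.11 (494 and 322). Their adjusted p-values lay between 2.3e-08 and 1.6e-04. Hspa5 stood at 588, 506, 416, 501 and 462 inside the gate and at 322, 355, 353, 256 and 326 outside it.

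Of all 14126 genes tested, 27.1% were called higher in the gate and 6.74% were called higher by at least 1 on the log2 scale, against 10 and 8 of the 10 members. DESeq2 also called 10 of 10 higher, beside 25.7% of genes. DESeq2 set the median of all genes at 0.18 on the log2 scale, against -0.03 in edgeR, and every member lay above that median under both. Genes of cell dissociation and of the immediate early response moved with the gate too. Their 11 genes summed to 1784 to 3650 CPM in hypoxic cells and to 620 to 1437 in other malignant cells, and their part in the result was not tested. Median depth was 12386 UMIs in the gate and 15098 outside it.

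**Figure D2:**
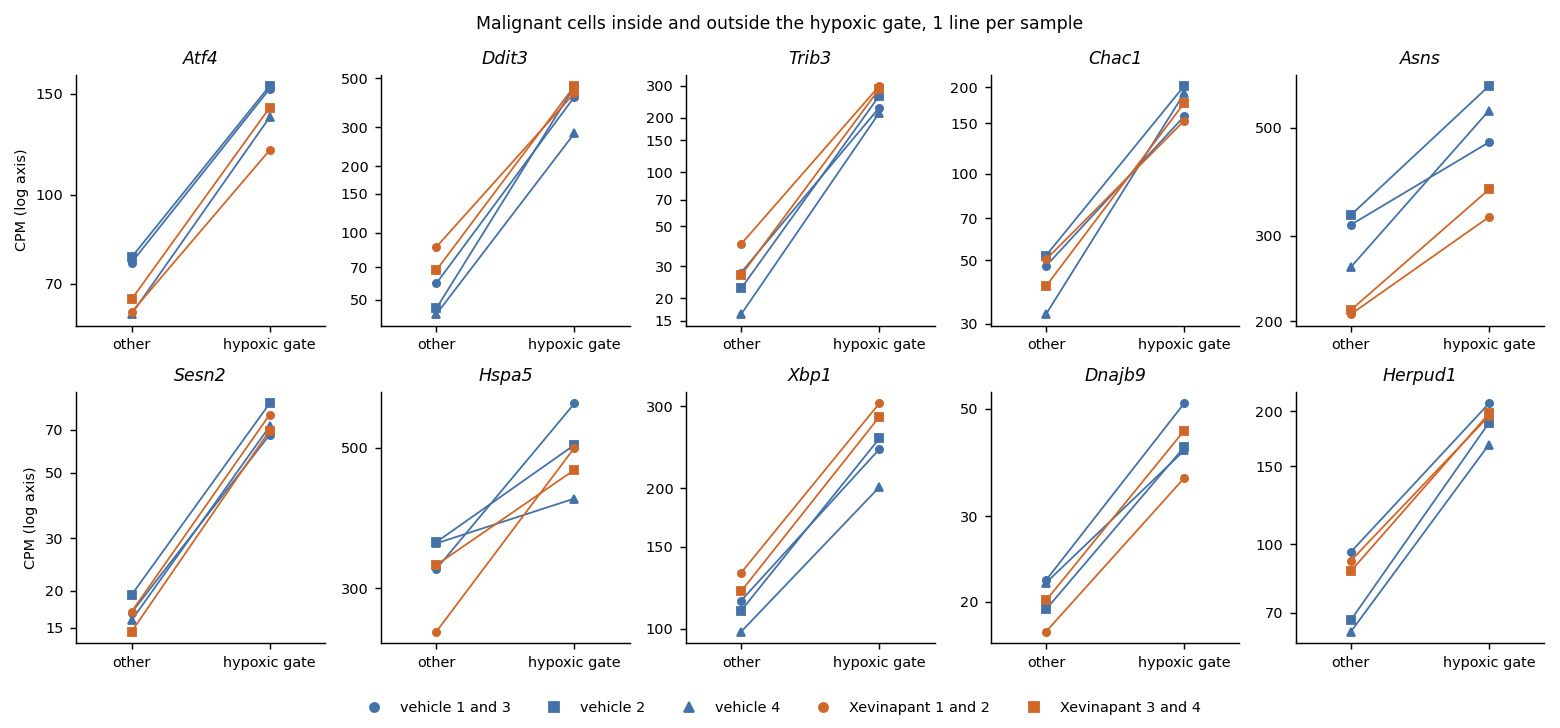
Level of each gene (CPM, log axis) in malignant cells outside and inside the hypoxic gate, 1 line per sample. All 50 lines rise, most steeply for Trib3 and Ddit3 and least for Hspa5 and Asns.

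Levels were then followed over classes of the hypoxia score. Cells without a hypoxia UMI had a mean Ddit3 level of 40.3 ± 10.4 CPM, cells with above 0 to 5 hypoxia UMIs per 10000 had 52.7 ± 11.4, and cells with above 5 to 10, which lie just outside the gate, had 215 ± 43.5 (SD, n = 5 samples). Above 10 to 20 the level was 353 ± 55.8 and above 20 to 40 it was 616 ± 193. Trib3 ran through 18.8, 22.7, 98.0, 210 and 421 CPM over the same 5 classes. Hspa5 stood at 321, 319, 359, 442 and 651, and in 5 of 5 samples it was higher in the class above 5 to 10 than in both lower classes. Xbp1 (113 and 111) and Herpud1 (80.03 and 77.2) did not differ beyond their spread between the lowest 2 classes and stood at 335 and 257 in the highest of the 5. The classes held 14456, 17148, 2395, 1185 and 320 cells. A class above 40, with 23 cells in 2 samples, is not plotted. There, in vehicle 1 and 3 and in Xevinapant 3 and 4, Ddit3 stood at 319 and 639, Trib3 at 222 and 669, Asns at 512 and 369 and Hspa5 at 461 and 700. In the class before, the same samples had Ddit3 at 539 and 630, Trib3 at 334 and 405, Asns at 454 and 426 and Hspa5 at 858 and 592. The 2 samples thus went opposite ways for each of these genes.

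**Figure D3:**
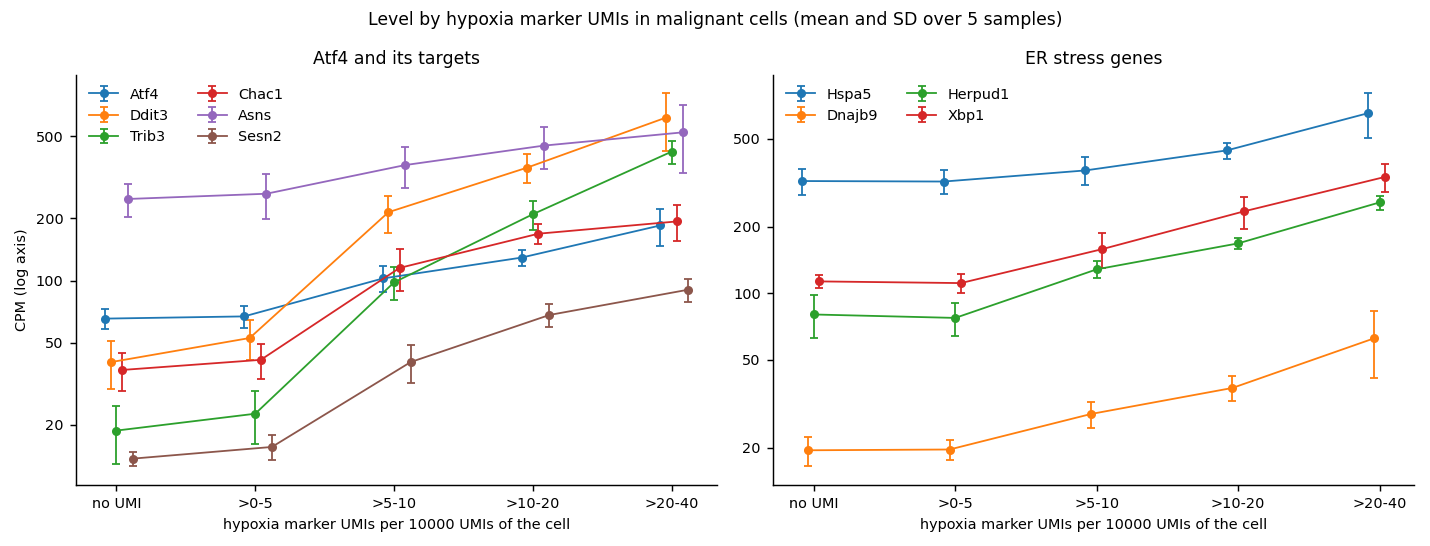
Mean level of each gene (CPM, log axis) in malignant cells by hypoxia UMIs per 10000, with the SD over 5 samples. Ddit3 climbs from 40.3 to 616 and Trib3 from 18.8 to 421, while Hspa5 stands at 321, 319 and 359 in the lowest 3 classes and at 651 in the highest.

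The rise was also present within the OPC-like cells. There 10 of 10 members, beside 19.1% of genes, were higher in hypoxic cells in 5 of 5 samples, with a mean log2 ratio of 3.19 ± 0.40 for Trib3, 2.65 ± 0.33 for Ddit3, 0.69 ± 0.22 for Asns and 0.34 ± 0.13 for Hspa5 (SD, n = 5). Within the MES-like cells 6 members, beside 7.23% of genes, were higher in 5 of 5 samples and Chac1, Sesn2, Hspa5 and Dnajb9 in 4 of 5. These counts rest on few cells, with 12 to 92 hypoxic MES-like cells a sample against 107 to 267 hypoxic OPC-like cells. In vehicle 2 there were 12 hypoxic and 14 other MES-like cells. Hypoxic cells made up 1.78 to 4.36% of malignant cells in vehicle samples and 4.14 to 8.29% in Xevinapant samples. Over all 5 samples they held 15.5 to 39.0% of the Trib3 UMIs and 8.46 to 29.7% of the Ddit3 UMIs of malignant cells. They held 1.39 to 7.84% of all UMIs. Most Trib3 and Ddit3 UMIs thus lay outside the gate. The share in hypoxic cells was lower for the other members, such as 5.99 to 28.3% for Sesn2 and 1.63 to 14.3% for Hspa5.

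Targets were then counted cell by cell. Each cell was thinned to 2000 UMIs, which left out 65 of 1381 hypoxic and 1735 of 34156 other malignant cells. A Ddit3 UMI was then found in a mean of 39.6% of hypoxic cells and 10.4% of other malignant cells (77.5% and 41.7% unthinned). For Trib3 the shares were 28.8% and 4.27% (61.3% and 16.6% unthinned) and for Chac1 25.7% and 7.27% (60.2% and 25.7% unthinned). At least 2 of the 5 targets were seen in 43.2 to 56.8% of hypoxic cells per sample and in 8.49 to 12.4% of the others. The shares of the single targets, multiplied as for independent genes, give 45.5 to 63.1% and 7.48 to 10.8%. The count was below that value in 4 of 5 samples inside the gate and above it in 5 of 5 outside. A count below it does not show that targets occur apart, since targets that go together can also leave more cells with 0. Cells with 0 of the 5 targets made up 14.4 to 23.8% of hypoxic cells, which was not set against such a value. As a background of such shares, Chac1 was found in 0.215% of thinned microglia, whose median depth was 7535 UMIs and from which predicted doublets had been removed, against 8.001% of thinned malignant cells, whose median depth was 14983. In the same microglia Trib3 was found in 1.02%, Ddit3 in 6.81%, Asns in 4.90% and Sesn2 in 3.13%.

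For the pair of Ddit3 and Trib3 the shares differed on both sides of the gate. Trib3 was found in 34.9 to 44.4% of hypoxic cells with a Ddit3 UMI and in 18.1 to 25.5% of those without, and outside the gate in 10.98 to 16.2% against 2.36 to 4.41%. As a description over the 33737 thinned malignant cells, which share libraries and depth, the mean Pearson r over 5 samples was 0.24 for Trib3 and Chac1 (0.23 outside the gate) and 0.22 for Ddit3 and Trib3 (0.17 outside it), but 0.002 for Asns and Dnajb9. Of 8049 other genes found in at least 5% of these cells, those most like the sum of the 5 targets were Ero1l (mean r 0.32), the thiol oxidase that makes disulfide bonds in the endoplasmic reticulum, Cars (0.30), the cysteinyl-tRNA synthetase, Vegfa (0.28), Ddit4 (0.25) and Eif4ebp1 (0.24). Those most like the sum of Hspa5, Xbp1, Dnajb9 and Herpud1 were Ero1l (0.14), P4hb (0.13), Calr (0.13), Slc3a2 (0.12) and Hsp90b1 (0.11).

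The rest of the pathway was counted in the hypoxic gate from 3 lists, beside 27.1% of all genes called higher and 29.9% called lower. Of 34 other ATF4 and integrated stress response targets 30 were called higher and 2 lower, with a median log2 difference of 0.86 beside -0.03 for all genes. Among them Atf3, a repressor induced by ATF4, rose by 3.12 ± 0.21, Nupr1, a chromatin-associated stress regulator, by 2.86 ± 0.12 and Ddit4, an mTORC1 inhibitor also induced by hypoxia, by 2.81 ± 0.14, while Phgdh, the entry enzyme of serine synthesis, was lower at -0.54 ± 0.08 and Wars at -0.32 ± 0.07 (SE). Of 26 folding and degradation genes tested, 10 were called higher and 4 lower, with a median of 0.06. There Ero1l rose by 3.87 ± 0.13 and P4hb, a protein disulfide isomerase and subunit of the collagen prolyl hydroxylase, by 1.15 ± 0.09, while Dnajb11, a BiP co-chaperone, was lower at -0.41 ± 0.07. Of 15 sensors and regulators 7 were called higher and 4 lower, with a median of 0.14, among them Ern1 (IRE1) at 0.72 ± 0.10 and Atf6 at 0.72 ± 0.07, and Atf6b at -0.55 ± 0.06. These genes of the lists were picked as the largest changes, after their values were seen.

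Cycling malignant cells, 10582 gated on Top2a, Mki67, Cdk1, Ccnb1 and Cenpf, had lower levels in CPM of most members than the rest. Only 4 of these 5 marker genes were in the probe set, and the gate asked for 3 of them. Trib3 had a mean of 21.8 ± 6.85 CPM in cycling and 43.8 ± 18.0 in other cells (SD, n = 5), a log2 difference of -0.88 ± 0.07 (SE; adjusted p = 1.5e-05, edgeR). Dnajb9 (-0.59 ± 0.04), Sesn2 (-0.57 ± 0.06), Xbp1 (-0.57 ± 0.04), Chac1 (-0.49 ± 0.05), Ddit3 (-0.31 ± 0.08), Hspa5 (-0.12 ± 0.02) and Herpud1 (-0.08 ± 0.03) were called lower as well. That makes 8 of 10 members, while 33.2% of 14183 genes were called lower, and DESeq2 called 7, without Herpud1, beside 27.8% of genes. Atf4 (0.02 ± 0.05, adjusted p = 0.77) and Asns (0.07 ± 0.03, adjusted p = 0.057) were not called, and without TMM scaling their differences were -0.08 and -0.03, where the median of all genes was -0.12 in place of -0.02. Median depth was 21176 UMIs in cycling and 12976 in other malignant cells, so a lower CPM need not mean fewer UMIs in a cell. Unthinned, a Ddit3 UMI was found in 48.9% of cycling and 40.8% of other malignant cells, and a Herpud1 UMI in 66.6% and 56.2%. Only Trib3 (16.8% and 19.2%) and Sesn2 (20.6% and 21.0%) were found in a lower unthinned share of cycling cells. With cells thinned to 2000 UMIs, the mean share was lower in cycling cells for every member but Asns (37.5% and 36.6%). For Xbp1 it was 15.8% and 22.5%, for Dnajb9 2.83% and 5.21% and for Ddit3 9.77% and 12.4%. The differences of Asns and Hspa5 (40.8% and 42.9%) lay within their SD over the samples. The hypoxia markers summed to 96.8 to 160 CPM in cycling and 135 to 356 in other malignant cells, and the genes of dissociation and the immediate early response to 556 to 1088 and 755 to 1801. Their part in the difference was not tested.

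The treatment was compared in malignant cells over 3 vehicle and 2 Xevinapant samples, to ask whether Xevinapant moved either response. Ddit3 stood at 72.6, 56.3 and 46.3 CPM in vehicle and at 113 and 81.3 in Xevinapant samples. Both Xevinapant samples were above all vehicle samples. The log2 difference of Xevinapant from vehicle was 0.70 ± 0.22 (SE; adjusted p = 0.43, edgeR), which did not pass the threshold of 0.05. Trib3 stood at 35.3, 28.9 and 19.0 against 60.3 and 35.7. Its groups were apart by the small gap between vehicle 1 and 3 and Xevinapant 3 and 4, and the log2 difference was 0.75 ± 0.31 (adjusted p = 0.46).

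Asns went the other way. It stood at 322, 338 and 263 in vehicle and at 216 and 217 in Xevinapant samples, so that the Xevinapant samples were nearly equal and below all vehicle samples. The log2 difference was -0.55 ± 0.15 (adjusted p = 0.43 in edgeR, 0.041 in DESeq2), a call that the tools did not share. With only vehicle 1 and 3 joined, 3 samples against 4, edgeR gave -0.55 ± 0.10 (adjusted p = 0.065), and with each matrix as 1 sample, 4 against 4, it gave -0.56 ± 0.09 (adjusted p = 0.019), which passed. Chac1, the other target with a composite element before its start, stood at 52.0, 55.8 and 34.6 against 58.4 and 45.2, with overlapping groups. Atf4 stood at 79.2, 79.8 and 63.0 against 67.0 and 68.4 and Sesn2 at 18.7, 21.0 and 16.6 against 21.8 and 16.4, again with overlap.

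Among the genes of the endoplasmic reticulum, Hspa5 stood at 332, 359 and 354 in vehicle and at 275 and 331 in Xevinapant samples, with the highest Xevinapant sample just under the lowest vehicle sample. Xbp1 stood at 120, 113 and 100 against 145 and 126. Its groups did not overlap either, and neither gene passed the test. Dnajb9 (23.3, 19.9 and 22.2 against 18.8 and 21.0) and Herpud1 (100, 70.5 and 64.9 against 99.9 and 90.7) overlapped between groups.

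In all, edgeR called 0 of 10 members, as it did 0% of 14399 genes, and 3 members (Ddit3, Trib3 and Asns) were at an unadjusted p under 0.05, as were 10.9% of genes. DESeq2 called 1 member, Asns, and 2.07% of genes. With only vehicle 1 and 3 joined edgeR called 0 members and 0.294% of genes, and with each matrix as 1 sample 1 member, Asns, and 4.32% of genes. The groups did not overlap for 5 members and for 29.8% of genes. An exact two-sided permutation test, which cannot go below p = 0.1 with 3 against 2 samples, gave p = 0.1 for Ddit3, Trib3, Hspa5 and Xbp1 and p = 0.2 for Asns. In the wider lists edgeR called 0 of 34, 0 of 26 and 0 of 15 genes in malignant cells.

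Other measures also differed between the treatment groups. The 11 dissociation and immediate early genes summed to 671.9 to 790 CPM in vehicle and 1365 to 1590 in Xevinapant samples, with 11 of 11 higher on average. The 5 hypoxia markers summed to 119 to 186 and 171 to 298, with overlap and with 5 of 5 higher. Of the immune markers 6 of 7, of the endothelial 6 of 7, of the fibroblast 5 of 5 and of the erythrocyte markers 5 of 5 were higher on average in Xevinapant malignant cells, and none was at 0. Of the neuron markers 3 of 5, of the mature oligodendrocyte 3 of 4, of the ependymal 2 of 3 and of the mural markers 2 of 6 were higher. Their part in the differences was not tested. Cycling cells were 31.2 to 33.2% of malignant cells in vehicle and 22.6 to 26.97% in Xevinapant samples.

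**Figure D4:**
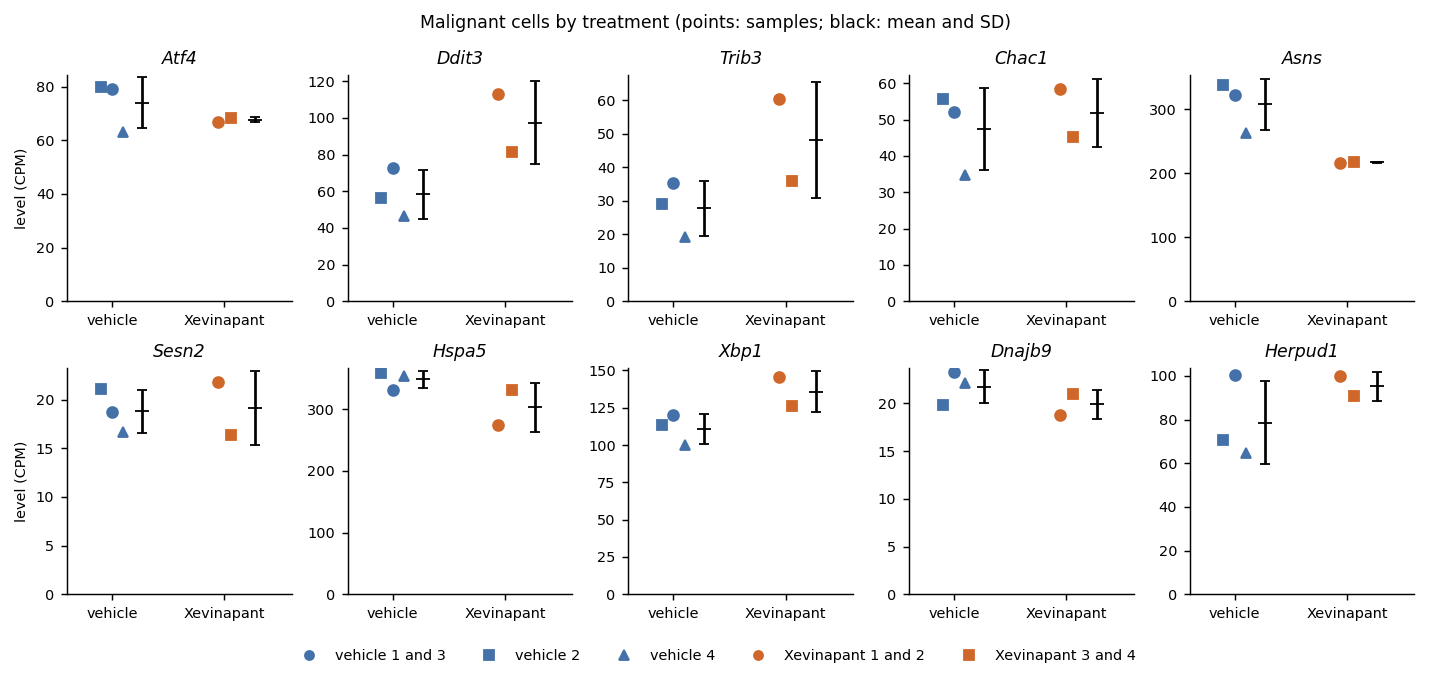
Level of each gene (CPM, axes from 0) in malignant cells of the vehicle and the Xevinapant samples, with the mean and SD of each group. The Xevinapant samples lie above all vehicle samples for Ddit3, Trib3 and Xbp1 and below them for Asns and Hspa5.

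Apart from the hypoxic cells the treatment difference of Ddit3 was 0.61 ± 0.18 and that of Asns -0.57 ± 0.14 on the log2 scale, with groups that did not overlap. That of Trib3 was 0.55 ± 0.26 and that of Hspa5 -0.28 ± 0.14, and the groups of both overlapped there. The share of all genes whose groups did not overlap was not counted outside the gate, and in all malignant cells it was 29.8%. Inside the gate the difference was 0.22 ± 0.21 for Ddit3, -0.61 ± 0.17 for Asns (adjusted p = 0.11), 0.34 ± 0.15 for Trib3 and -0.05 ± 0.18 for Hspa5. Outside the gate edgeR called 0 of 10 members and 0% of genes, with 2 members and 10% of genes at an unadjusted p under 0.05. Inside it edgeR called 0 of 10 members and 1.05% of genes, with 1 member and 18.6% of genes at an unadjusted p under 0.05. Those calls inside the gate were 121 genes, but 0 without vehicle 2 or without Xevinapant 1 and 2, 9 without vehicle 4, 10 without Xevinapant 3 and 4 and 376 without vehicle 1 and 3. With only vehicle 1 and 3 joined edgeR called Asns inside the gate (adjusted p = 0.016), beside 9.45% of genes, and with each matrix as 1 sample Asns (adjusted p = 0.013) and Trib3 (adjusted p = 0.048), beside 11.8% of genes. DESeq2 called Asns on both sides, beside 1.44% of genes outside and 4.41% inside. Whether the difference itself differed between the sides was not tested.

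By state, edgeR called 0 of 10 members in OPC-like, AC-like, MES-like and NPC-like cells and 0% of genes in each. DESeq2 called 0 of 10 in OPC-like (1.01% of genes), 0 of the 6 to which it gave an adjusted p in AC-like (0.469%), 0 of 10 in MES-like (0.247%) and 0 of 10 in NPC-like cells (0.0247%). At an unadjusted p under 0.05 stood 3 members in OPC-like cells (10.7% of genes), 3 in AC-like (8.06%), 1 in MES-like (7.05%) and 1 in NPC-like cells (4.97%). The log2 difference of Asns was -0.54 in OPC-like, -0.34 in AC-like, -0.53 in MES-like and -0.47 in NPC-like cells, and that of Ddit3 was 0.64, 0.63, 0.20 and 0.37. The others at an unadjusted p under 0.05 were Trib3 in OPC-like cells at 0.73 ± 0.31 (adjusted p = 0.47) and in NPC-like cells at 1.47 ± 0.45 (adjusted p = 0.79), and Herpud1 in AC-like cells at 0.52 ± 0.20 (adjusted p = 0.58). Xevinapant 1 and 2 held only 11 NPC-like cells.

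In the cells of the host edgeR called 0 members in each of 6 types. DESeq2 called 0 of the 10 members with an adjusted p in microglia (0% of genes), of 5 in macrophages (1.45%), of 2 in monocytes (4.41%), of 9 in T and NK cells (0.0248%), of 2 in endothelial cells (0.512%) and of 10 in fibroblasts (0.153%). In microglia 1 of 8 members tested was at an unadjusted p under 0.05 (6.47% of genes, with 0% called) and in macrophages 2 of 9 (12% of genes, with 0.306% called). These calls in macrophages were 27 genes, with 0 left without vehicle 2 and 67 without Xevinapant 3 and 4. In monocytes it was 2 of 6 (10.8%, with 0.509% called), in T and NK cells 0 of 3 (6.76%, with 0.0391% called), in endothelial cells 3 of 6 (9.54%, with 0.217% called) and in fibroblasts 1 of 9 (6.9%, with 0% called). Only members that passed the filter on low counts were tested. Ddit3 had a log2 difference of 1.65 ± 0.54 in endothelial cells (adjusted p = 0.37), 1.36 ± 0.58 in monocytes (adjusted p = 0.42), 0.46 ± 0.20 in microglia (adjusted p = 0.75) and -0.62 ± 0.26 in fibroblasts (adjusted p = 0.70). The first 2 rest on vehicle samples of 29, 21 and 32 endothelial cells and of 18 and 27 monocytes, so on few Ddit3 UMIs. The lowest sample stood at 10.0 CPM in endothelial cells and at 26.8 in monocytes. Asns was at -0.92 ± 0.40 in endothelial cells and -0.89 ± 0.36 in macrophages, where Trib3 was at 1.17 ± 0.42 (adjusted p = 0.52, 0.34 and 0.27). Hspa5 was at -0.84 ± 0.26 in endothelial cells (adjusted p = 0.33) and at 0.62 ± 0.27 in monocytes (adjusted p = 0.43). The dissociation and immediate early genes summed to 852 to 1080 CPM in vehicle and 1279 to 1430 in Xevinapant microglia. In fibroblasts they summed to 462 to 628 against 793 to 838, and the hypoxia markers to 212 to 626 against 648 to 853. The microglial hypoxia markers overlapped between groups. Their part was not tested. In the wider lists edgeR called 2 genes in these types, Atf3 in endothelial cells at 2.23 ± 0.42 (adjusted p = 0.046) and Ero1l in monocytes at 2.66 ± 0.40 (adjusted p = 0.0036). Atf3 did not pass without any 1 of the 5 samples (adjusted p = 0.058 to 0.56) nor with each matrix as 1 sample (0.071). The dissociation and immediate early genes summed to 642 to 883 CPM in vehicle and 1638 to 1952 in Xevinapant endothelial cells, and their part was not tested. Ero1l rested on vehicle samples of 18 and 27 monocytes, and it did not pass with a stricter gate (1.67 ± 0.42, adjusted p = 0.55) or without vehicle 4 (adjusted p = 0.44), which left 1 vehicle sample that was assumed to vary like the Xevinapant samples. In monocytes the hypoxia markers summed to 161 and 96.0 CPM in vehicle and 464 and 309 in Xevinapant samples and the dissociation and immediate early genes to 1513 and 2517 against 2545 and 3018, both without overlap, and their part was not tested. The 12 glial genes stood at 4.37 to 21.3% of their malignant level in endothelial cells and at 3.49 to 10.9% in macrophages, and the part of tumor RNA was not tested.

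Tests of whether the treatment difference in a host type departed from that in malignant cells called 0 of 10 members in 4 types. They called 0.0919% of genes in microglia, 1.73% in macrophages, 0.208% in endothelial cells and 0.00696% in fibroblasts, and 4.23%, 9.08%, 4.91% and 5.38% of genes were at an unadjusted p under 0.05. Members at that level were 0 in microglia, 1 in macrophages (Ddit3), 0 in endothelial cells and 2 in fibroblasts (Ddit3 and Chac1). For Ddit3 in fibroblasts the difference of differences was -1.34 ± 0.33 (adjusted p = 0.26). Of the wider lists, Atf3 (-1.38 ± 0.26, adjusted p = 4.7e-05) and Ddit4 (-0.92 ± 0.27, adjusted p = 0.047) were called in macrophages, where Xevinapant minus vehicle was lower than in malignant cells. The dissociation and immediate early genes in macrophages stood at 1223, 1233 and 3161 CPM in vehicle 1 and 3, vehicle 2 and vehicle 4 (62 cells). In the Xevinapant samples they stood at 1666 and 1731. The hypoxia markers summed to 206 to 337 in vehicle and 345 to 386 in Xevinapant macrophages. The part of either was not tested.

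**Figure D5:**
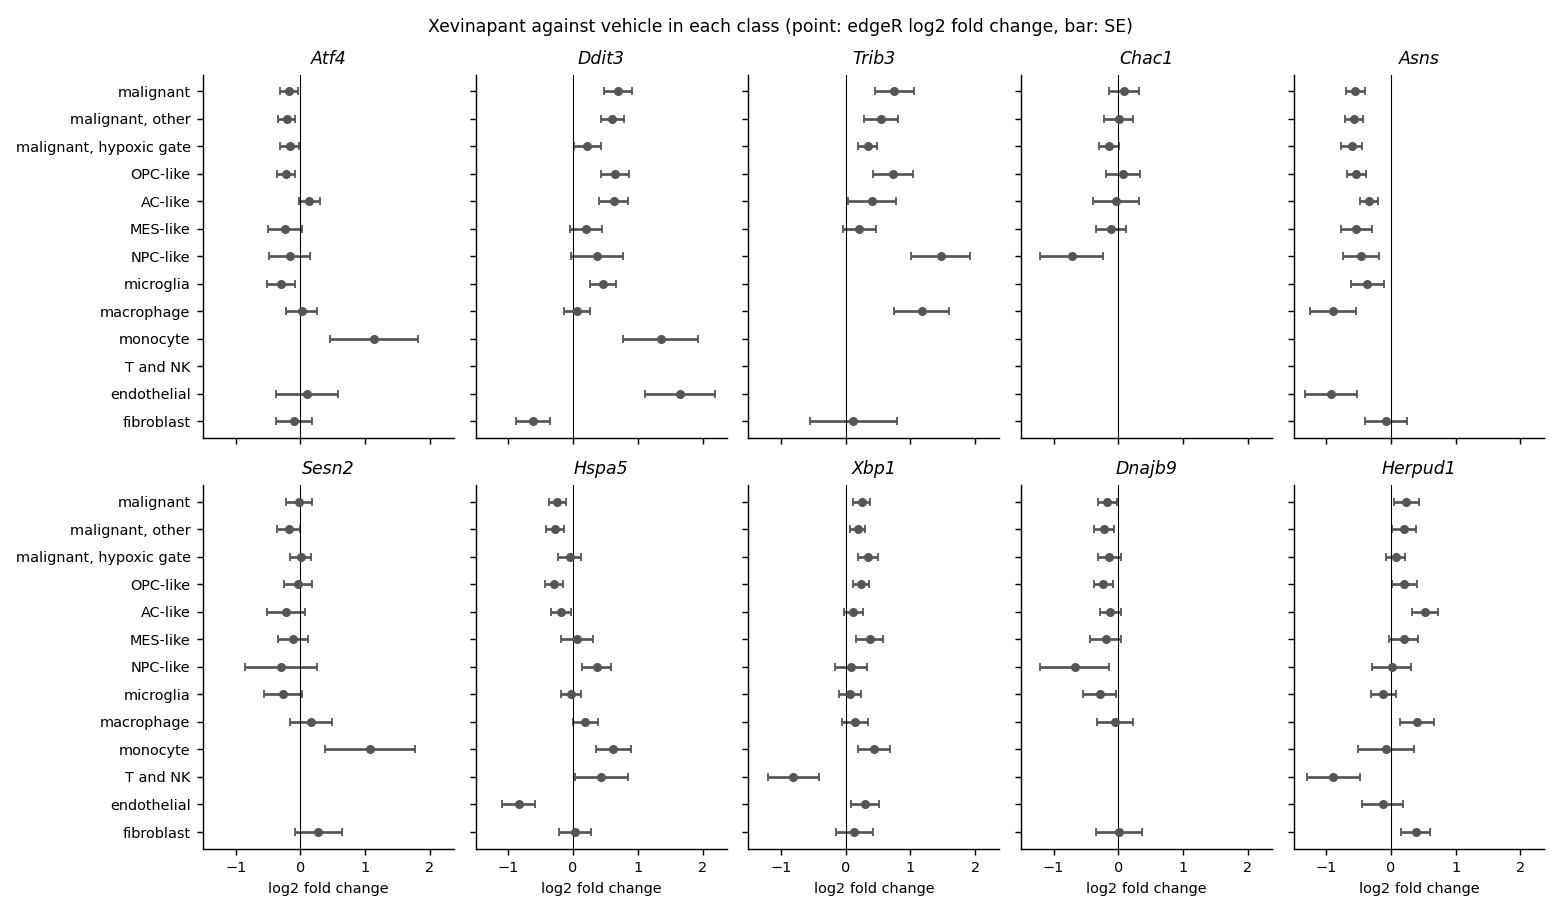
Log2 difference of Xevinapant from vehicle for each gene in each cell type, with the SE. Asns lies below 0 in every type and gate plotted where it was tested and Ddit3 above 0 in all but fibroblasts, in types that share their samples, and 0 of these differences passed the adjusted threshold in edgeR.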

How the data were processed

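Single cells of orthotopic mouse tumors were profiled with fixed-cell probes, 4 matrices per group. The deposited values are UMI counts, not normalized, which the authors made with Cell Ranger (3.0 per the labels, 7.1.0 per the file headers) on mm10. Labels also name Seurat 4.0. Barcodes under 200 genes, over 10% mitochondrial UMIs or under 0.8 in complexity were left out, which kept 54574, 3905 predicted doublets (scanpy 1.11.5) were removed, and barcodes shared by both pools were dropped where 10 times shallower. Cell types were gated on marker UMIs per 10000, with thresholds set after marker levels and cell numbers were seen, so types can differ from those of the study, and hypoxic cells had at least 10 such UMIs and 2 markers. Matrices that differed by up to 1.5 times sampling noise were to be joined, which joins vehicle 1 and 3 (1.15). Xevinapant 1 and 2 (2.14) and 3 and 4 (2.12) stood far below other pairs of a group (4.41 to 7.35) and were joined too, a choice made after these values were seen. UMIs were summed per sample and type (at least 10 cells) and tested with edgeR 4.0.16 (TMM, filterByExpr, quasi-likelihood, Benjamini-Hochberg over all genes tested, called at 0.05), with DESeq2 1.42.0 as an alternative, in R 4.3.3. Scripts were tested on simulated data. Neutrophils, dendritic cells and mural cells had too few samples for a treatment test. Members, lists and markers were chosen with earlier results of these data known. The naming rule covered all 10 members in every type. The treatment plots show all that were tested, and the text gives in the types beyond malignant cells those at an unadjusted p under 0.05. Of the wider lists it covered the 3 genes that rose and the 3 that fell most in malignant cells under treatment, of which there were 0. Depth was 7452 to 14027 median UMIs per barcode.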

Additional observations from a re-analysis of the deposited data

Results flagged for a closer look

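In cells that no treatment comparison used, some members had higher values in every Xevinapant sample than in every vehicle sample. They are named for that order, and the share of all genes with the same order was not counted in these cells. In malignant cells the groups did not overlap, in either direction, for 29.8% of genes. The barcodes of no gate held the 12 glial genes at 78.9 to 95.0% of their malignant level, and the part of tumor RNA was not tested. In the 10390 barcodes that met no gate, Ddit3 had a mean of 125.9 CPM in 2 Xevinapant samples and 85.87 in 3 vehicle samples, and Xbp1 164.3 and 141.5. In neutrophils, where 1 vehicle sample had at least 10 cells, Ddit3 had a mean of 617.3 in 2 Xevinapant samples against 445.3, Asns 88.96 against 29.69, Hspa5 248.2 against 178.1 and Herpud1 78.19 against 0. The vehicle neutrophils were 28 cells with 33685 UMIs in all, where the Ddit3 level rested on 15 UMIs and the Hspa5 level on 6. The Asns level was 1 UMI there, and a count of 0 allows up to 89.1 CPM. That is above the Asns and Herpud1 means of the other group, so that no difference was detectable for Asns and Herpud1 at this depth. Other members went the other way. In the barcodes of no gate Asns had a mean of 180 in Xevinapant and 231 in vehicle samples, without overlap, and in neutrophils Xbp1 had 501 against 772 and Atf4 136 against 178, the latter from 6 vehicle UMIs. There no difference was detectable for Chac1 (27.1 against 89.1) and Dnajb9 (48.3 against 59.4), whose vehicle values rest on 3 and 2 UMIs and do not exceed what a count of 0 allows. The dissociation and immediate early genes summed to 789 to 922 CPM in vehicle and 1508 to 1937 in Xevinapant barcodes of no gate. In neutrophils they summed to 3889 in the vehicle sample and to 5074 and 6308 in the Xevinapant samples. Neither their part nor any of these differences was tested.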

How the results depend on the processing

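The hypoxic gate called 10 of 10 members higher under each alternative run (DESeq2, no TMM, a stricter gate, cross-pool copies kept and each sample left out), and leaving out 1 sample moved Trib3 between 3.33 and 3.51 and Hspa5 between 0.62 and 0.82 on the log2 scale. The treatment test depended on the tool and on the joining of matrices. Of the members, 1 was called with DESeq2 in malignant, hypoxic and non-hypoxic cells (Asns), 1 with each matrix as 1 sample in malignant, OPC-like and non-hypoxic cells (Asns), 2 with each matrix as 1 sample in hypoxic cells (Asns and Trib3), 1 with only vehicle 1 and 3 joined in hypoxic cells (Asns) and 1 without the low-count filter in AC-like cells (Ddit3), where the test as reported called 0. Over the same 3 layouts of samples (3 against 2, 3 against 4 and 4 against 4), edgeR called 0, 42 and 601 genes in malignant, 0, 15 and 422 in OPC-like, 121, 1073 and 1304 in hypoxic, 0, 15 and 524 in non-hypoxic cells and 27, 223 and 295 in macrophages, and DESeq2 called 278, 143, 498, 204 and 78. Chac1 in malignant cells ran from -0.13 to 0.27 and Sesn2 from -0.26 to 0.18 when 1 sample was left out, Sesn2 was 0.0215 without TMM, and in cycling cells Atf4 was -0.0838 and Asns -0.0312 without TMM. The causes were not tested. Ddit3 ran from 0.41 to 0.93, Trib3 from 0.30 to 1.09 and Asns from -0.65 to -0.47 over samples left out, none called. With doublets kept, Chac1 in microglia was 8.07 CPM in place of 1.52. In the types not yet named, the 3 layouts gave 0, 38 and 5 calls in MES-like, 0, 46 and 126 in NPC-like, 31, 39 and 48 in monocytes, 12, 2 and 2 in endothelial cells, 1, 3 and 3 in T and NK cells and 0, 9 and 4 in fibroblasts, and DESeq2 gave 30 in AC-like, 25 in MES-like, 3 in NPC-like, 3 in T and NK, 6 in endothelial cells and 16 in fibroblasts. Without the low-count filter edgeR called 303 genes in AC-like, 216 in MES-like, 128 in NPC-like, 425 in hypoxic cells, 60 in microglia, 319 in macrophages, 128 in monocytes, 61 in T and NK, 107 in endothelial cells and 69 in fibroblasts. Without vehicle 1 and 3 the treatment test rested on 2 against 2 samples, and where 1 sample of a group was left, as without a Xevinapant sample or, in monocytes and T and NK cells, a vehicle sample, it was assumed to vary like those of the other group. A stricter NPC-like gate and T and NK cells of at least 2000 UMIs left too few samples and were not run. With 1 sample left out edgeR called 0 to 67 genes in macrophages (27 as reported), 0 to 74 in monocytes (31), 7 to 89 in T and NK (1), 2 to 25 in endothelial (12), 0 to 30 in fibroblasts (0), 0 to 12 in microglia (0), 0 to 180 in MES-like (0), 0 to 50 in NPC-like (0) and 0 to 376 in hypoxic cells (121), and 0 or 1 in the other malignant groups. The labels give no replicate numbers, and the 4 matrices of each group share only a number. In malignant cells the deviations of same-numbered matrices from their group means correlated at 0.21, -0.04, -0.24 and 0.23 across 13916 genes, and not every matrix correlated best with its own number. With that number as a replicate block, a fit added after the data were seen, the 4 against 4 test called 23 genes in malignant (601 without the block), 19 in OPC-like (422), 1178 in hypoxic (1304) and 19 in non-hypoxic cells (524), 1 member, Asns, in hypoxic cells and 0 members in the other types, with Asns in malignant cells at -0.56 (edgeR, adjusted p = 0.062). A stricter gate left 0 calls in monocytes (31 as reported), 1 in macrophages (27), 43 in hypoxic (121), 6 in endothelial (12) and 0 in T and NK cells (1). Depth limits the members in host cells, of which some did not pass the filter on low counts.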
